A study of Mus musculus with 28 samples.

Results

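The Hox cluster genes are the homeobox genes of the mouse Hoxa, Hoxb, Hoxc and Hoxd clusters. All 39 gene symbols made of Hox, a cluster letter and a number were taken from the deposited FPKM tables, out of 23951 gene symbols. The rule used names only and no measured value, but it was set with earlier results of these data known. FPKM is the number of sequenced fragments scaled to transcript length and library size.

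All samples came from a mouse fibroblast line, NIH/3T3 Tet-On 3G, which is immortal and carries a doxycycline-controlled transactivator. RNA was sequenced from 3 clones with knockdown of the histone variant H3.3, by OFP-H3.3A/GFP-H3.3B constructs (H3.3KD), and from 2 control clones with GFP-Luciferase/OFP-Luciferase constructs (LUC). Each RNA library is 1 clone, so p-values measure the spread between these clones. MTA1 and RBBP4, subunits of the nucleosome remodelling and deacetylase complex NuRD, were mapped by chromatin immunoprecipitation (ChIP) in H3.3KD and in LUC cells, with 1 library each. CHD4, HDAC1, HDAC2, MBD2/3, MTA1, RBBP4 and the marks H3K4me3, H3K9ac and H3K27ac were mapped once each in cells that were not transduced. HA-tagged H3.3 was mapped in 2 libraries from cells with an HA/FLAG-H3.3 construct that were grown with aphidicolin, which blocks DNA replication, and doxycycline. A sequential ChIP of FLAG-tagged H3.3 and then RBBP4, set against IgG, used cells with the same construct. The study asked how H3.3 depletion affects NuRD subunit binding and gene expression.

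Hox genes code for DNA-binding transcription factors that give cells their position along the body axis. Within a cluster the genes lie in the order in which they are used along the head-to-tail axis, from paralogue group 1 (anterior) to group 13 (posterior), and fibroblasts keep a Hox code of the site they came from. Active Hox genes carry the promoter mark H3K4me3 and acetylated histone H3, while Polycomb complexes keep the others silent. The histone H3 variant H3.3 enters chromatin also outside of DNA replication.

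The RNA libraries held an estimated 18.2, 26.5 and 18.6 M fragments in H3.3KD clones 1 to 3, and 25.9 and 25.2 M in LUC clones 1 and 2. The targeted genes were lower in every H3.3KD clone: H3f3a had 71.8, 35.6 and 5.05 FPKM in the H3.3KD clones, against 128.3 and 143.5 FPKM in the LUC clones, and H3f3b had 144.4, 104.3 and 51.7 FPKM in the H3.3KD clones, against 249.4 and 237.1 FPKM in the LUC clones. All 11 fibroblast markers had a mean of at least 1 FPKM in both groups, and their sum was 8257 to 9837 FPKM in the H3.3KD clones and 6623 to 7336 FPKM in the LUC clones. Other markers were lower in sum: skeletal muscle 26.5 to 45.4 FPKM in H3.3KD and 45.9 to 55.8 FPKM in LUC clones, mostly Acta1; haematopoietic 8.76 to 17.4 and 6.18 to 11.8; endothelial 1.29 to 10.8 and 4.77 to 8.41; epithelial 0.658 to 6.38 and 2.30 to 2.51; pluripotent 2.37 to 12.2 and 3.57 to 5.58; neural 0.391 to 1.49 and 0.526 to 0.764. Of these lists Epcam (epithelium), Sox2 (neural) and Myod1 (muscle) were listed at 0 in all libraries, and Cdh5, an endothelial cadherin, had 0.190, 0.170 and 0.495 FPKM in the H3.3KD clones, against 3.78 and 6.89 FPKM in the LUC clones. The part of these markers in the Hox values was not tested.

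A gene was called active where its mean in the LUC clones was at least 1 FPKM, and silent otherwise. By this rule 18 Hox genes were active and 21 were silent. The active genes sat in the anterior and middle part of the clusters. Of the 13 members of paralogue groups 3 to 6, 12 were active, the exception being Hoxb4. Of the 9 members of groups 7 to 9, 3 were active (Hoxa7, Hoxd8 and Hoxd9). Of the 12 members of groups 10 to 13, 1 was active (Hoxa10). The Hoxa cluster had 8 active of 11 genes, Hoxb 3 of 10, Hoxc 3 of 9 and Hoxd 4 of 9. The active genes were not a single block from the anterior end: Hoxb1, Hoxb2 and Hoxd1, at the anterior ends of their clusters, were silent, and in Hoxa the silent Hoxa9 lay between the active Hoxa7 and Hoxa10.

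**Figure D1:**
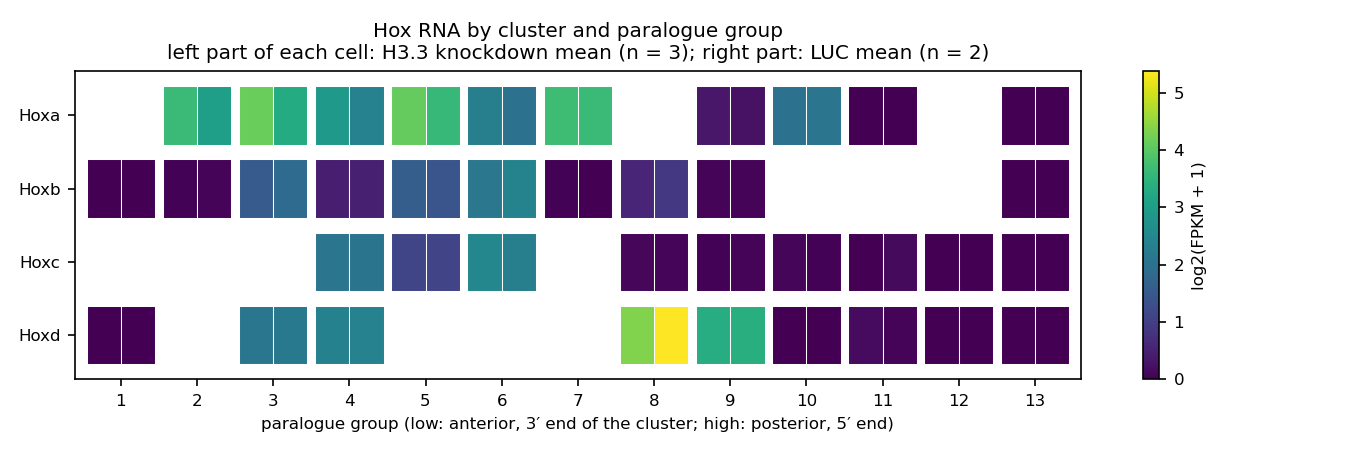
Mean RNA level of the Hox genes reported here as log2(FPKM + 1), by cluster (rows) and paralogue group (columns). In each cell the left part is the mean of the 3 H3.3KD clones and the right part the mean of the 2 LUC clones. Empty places have no gene or a gene that is not reported here. Groups 3 to 6 are filled except for the low Hoxb4, groups 11 to 13 are at or near 0 in every cluster, and Hoxd8 is the brightest cell.

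The threshold of 1 FPKM fell between Hoxc5, with a LUC mean of 1.11 FPKM, and Hoxb8, with a LUC mean of 0.830 FPKM. Hoxb8 had 0.397, 0.406 and 0.622 FPKM in the H3.3KD clones, against 0.463 and 1.198 FPKM in the LUC clones, so 1 LUC clone alone was above the threshold. In such bulk RNA, fewer cells with a transcript and less RNA per cell cannot be told apart. The next silent gene was Hoxb4, with a LUC mean of 0.383 FPKM. Hoxa11, Hoxa13, Hoxc12, Hoxc13, Hoxd1, Hoxd10 and Hoxd12 were listed at 0 in all 5 libraries. Most of these are the genes for limb, tail, hair and urogenital structures at the posterior ends of the clusters. Hoxd8, a group 8 gene of trunk tissues, had the highest LUC mean, 40.5 FPKM, followed by Hoxa7, Hoxa5 and Hoxd9 with 11.5, 11.2 and 9.54 FPKM, which did not differ beyond their spread between clones. Long loci contain neighbours: the deposited Hoxa3 locus spans Hoxa4, Hoxa5 and Hoxa6, and the Hoxd3 locus spans Hoxd4. Neither the strand nor how reads were split between these overlapping transcripts is stated, so the levels of these 6 genes are less certain than those of the others.

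Promoter sequences of 4 members show how far the level and the promoter's base composition diverged. RefSeq (GRCm38.p6) promoters of 300 bases, 250 before and 50 after the start, matched 22 of the 39 genes with 24 promoters. Printed 5′ to 3′ with every CG dinucleotide in capitals, they are the highest member, Hoxd8 (chr2:74704365-74704664, plus strand), the active Hoxa5, a gene for lung and neck-to-thorax skeleton (chr6:52204538-52204837, minus strand), and the silent Hoxa13, a gene for digits and the genital tubercle (chr6:52260831-52261130, minus strand), and Hoxd10, a gene for lumbar motor neurons (chr2:74691641-74691940, plus strand).
Hoxd8: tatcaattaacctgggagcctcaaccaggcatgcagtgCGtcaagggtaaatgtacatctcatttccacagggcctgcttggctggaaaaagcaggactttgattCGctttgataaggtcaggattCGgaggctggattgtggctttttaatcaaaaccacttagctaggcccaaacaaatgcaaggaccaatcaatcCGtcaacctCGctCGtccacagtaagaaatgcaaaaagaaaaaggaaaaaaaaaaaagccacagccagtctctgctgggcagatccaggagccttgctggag
Hoxa5: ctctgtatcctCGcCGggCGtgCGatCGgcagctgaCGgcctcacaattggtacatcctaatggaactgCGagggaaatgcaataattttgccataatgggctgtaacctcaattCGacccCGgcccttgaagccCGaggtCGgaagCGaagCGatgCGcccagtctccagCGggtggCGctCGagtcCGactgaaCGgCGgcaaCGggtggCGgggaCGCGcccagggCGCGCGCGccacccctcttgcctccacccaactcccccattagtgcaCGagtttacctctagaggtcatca
Hoxa13: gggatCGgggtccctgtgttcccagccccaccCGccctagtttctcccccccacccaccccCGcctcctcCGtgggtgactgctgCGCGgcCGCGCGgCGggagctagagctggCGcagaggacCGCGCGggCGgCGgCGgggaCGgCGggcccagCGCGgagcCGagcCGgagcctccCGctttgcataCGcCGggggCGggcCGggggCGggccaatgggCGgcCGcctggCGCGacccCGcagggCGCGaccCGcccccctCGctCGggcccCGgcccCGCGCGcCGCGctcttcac
Hoxd10: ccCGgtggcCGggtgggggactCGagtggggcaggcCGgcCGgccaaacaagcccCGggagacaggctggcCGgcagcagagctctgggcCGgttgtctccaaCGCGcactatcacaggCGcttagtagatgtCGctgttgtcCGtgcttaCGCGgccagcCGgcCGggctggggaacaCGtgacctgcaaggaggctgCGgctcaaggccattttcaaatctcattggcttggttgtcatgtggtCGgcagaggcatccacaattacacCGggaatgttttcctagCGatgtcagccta

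The Hoxd8 promoter held 6 CG dinucleotides at 46.7% GC, the fewest of these 4 promoters, although its gene had the most RNA. Hoxa5 held 29 at 61.7% GC. The 2 silent genes held 45 at 81.0% GC (Hoxa13) and 22 at 62.7% GC (Hoxd10). The median over the 12 promoters of active Hox genes was 56.5% GC with 16 CG dinucleotides, and over the 12 promoters of silent Hox genes 58.7% GC with 14.5. Over all 32841 promoters in the table it was 52.7% GC with 7. The TATA motif TATAAA, searched on both strands, was in 2 of 12 promoters of active genes (Hoxd4 and Hoxa10) and in 2 of 12 of silent genes (Hoxd13 and Hoxb8), against 13.6% of all promoters. The PBX-HOX motif TGATTNAT, also on both strands and neither containing TATAAA nor contained in it, was in 1 of 12 promoters of active genes (Hoxa2) and 1 of 12 of silent genes (Hoxd11), against 3.22% of all promoters.

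The first comparison asked whether Hox RNA differed between H3.3KD and LUC clones. No Hox gene passed the test: limma, run on log2(FPKM + 1) for 11728 genes averaging at least 1 FPKM, called 0 of the 18 Hox genes tested at an adjusted p under 0.05. It called 4 of all genes tested (0.0341%). The targeted H3f3a and H3f3b were not called either, with log2 differences of -2.44 and -1.39 (limma adjusted p = 0.516 and 0.469). A lack of calls with 3 against 2 clones therefore does not show that Hox RNA was unchanged. The 18 genes that passed the filter are the 18 active ones, and the 21 silent genes were not tested. At an unadjusted p under 0.05, 1 Hox gene passed (Hoxa3), against 9.81% of all genes tested. All 3 H3.3KD clones lay above both LUC clones at 3 Hox genes (Hoxa2, Hoxa3 and Hoxa5), against 11.4% of all genes. All 3 lay below both at 2 (Hoxb3 and Hoxd8), against 21.2% of all genes. The median log2 difference, H3.3KD minus LUC, was 0.03 over the 18 Hox genes and -0.10 over all genes tested.

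In the Hoxa cluster 6 of 8 active genes had a higher mean in H3.3KD, against 40.1% of all genes tested. The median log2 difference of these 8 genes was 0.39, and none passed the adjusted threshold. Hoxa3, a gene for the thymus and parathyroid, had 19.9, 13.5 and 16.8 FPKM in the H3.3KD clones, against 9.25 and 8.32 FPKM in the LUC clones. Every H3.3KD clone was above both LUC clones, with a log2 difference of 0.85 (SE 0.21, limma adjusted p = 0.442). Hoxa2, which patterns the hindbrain and the second pharyngeal arch, had 15.8, 10.2 and 8.30 FPKM in the H3.3KD clones, against 7.42 and 6.69 FPKM in the LUC clones. The groups did not overlap, though H3.3KD clone 3 was close to LUC clone 1, with a log2 difference of 0.58 (SE 0.29, limma adjusted p = 0.527), and 0.34 without H3.3KD clone 1. Hoxa5 had 15.9, 19.8 and 12.8 FPKM in the H3.3KD clones, against 12.5 and 9.82 FPKM in the LUC clones. Its groups were also apart by a narrow gap, with a log2 difference of 0.48 (SE 0.24, limma adjusted p = 0.530).

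Of the other Hoxa genes, Hoxa4, Hoxa6, Hoxa7 and Hoxa10 overlapped between the groups. Hoxa4 had 4.80, 5.12 and 9.23 FPKM in the H3.3KD clones, against 4.80 and 3.50 FPKM in the LUC clones, and clone 3 set its higher H3.3KD mean. Hoxa6 had 4.53, 3.05 and 4.21 FPKM in the H3.3KD clones, against 3.40 and 2.62 FPKM in the LUC clones. Hoxa7, a gene of the thoracic skeleton, had 14.0, 12.6 and 9.63 FPKM in the H3.3KD clones, against 14.2 and 8.87 FPKM in the LUC clones. Hoxa10, a gene of the uterus and the lumbar spine, had 4.11, 2.80 and 2.21 FPKM in the H3.3KD clones, against 3.58 and 2.91 FPKM in the LUC clones. These last 2 genes spread as widely within a group as between groups. Summed over its 11 genes, the Hoxa cluster had 84.6, 75.1 and 68.1 FPKM in the H3.3KD clones. The LUC clones had 60.9 and 50.1 FPKM, so the sums did not overlap. Of all genes tested, 11.4% also had all 3 H3.3KD clones above both LUC clones.

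Hoxd8 was the member with the largest lower value. It had 16.9, 25.7 and 16.1 FPKM in the H3.3KD clones, against 26.0 and 54.9 FPKM in the LUC clones. The highest H3.3KD clone and the lower LUC clone nearly met, and LUC clone 2 stood apart from all other libraries. The log2 difference was -0.95 (SE 0.39, limma adjusted p = 0.512), -1.47 without LUC clone 1 and -0.42 without LUC clone 2. The authors' deposited table gives Hoxd8 an interval of 24.6 to 27.4 FPKM in LUC clone 1 and of 52.5 to 57.4 FPKM in LUC clone 2, so these control clones differed by more than the intervals of the counting. Hoxd9, its neighbour, had 10.7, 8.503 and 8.54 FPKM in the H3.3KD clones, against 8.01 and 11.1 FPKM in the LUC clones, and the groups overlapped. Hoxd3 had 3.87, 2.95 and 3.18 FPKM in the H3.3KD clones, against 2.34 and 4.67 FPKM in the LUC clones. Hoxd4 had 4.62, 3.92 and 3.74 FPKM in the H3.3KD clones, against 3.06 and 5.35 FPKM in the LUC clones. In all 4 active Hoxd genes LUC clone 2 had the highest value of the 5 libraries, and the log2 differences of Hoxd3, Hoxd4 and Hoxd9 were -0.01, 0.00 and -0.03. The Hoxd sum was 36.3, 41.1 and 31.7 FPKM in the H3.3KD clones, against 39.5 and 76.1 FPKM in the LUC clones.

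In Hoxb, Hoxb3, a hindbrain and pharyngeal gene, had 1.71, 2.01 and 1.85 FPKM in the H3.3KD clones, against 2.06 and 3.21 FPKM in the LUC clones. All H3.3KD clones were below both LUC clones, clone 2 by little, with a log2 difference of -0.33 (SE 0.23, limma adjusted p = 0.606). It was -0.56 without LUC clone 1 and -0.10 without LUC clone 2. Hoxb5 had 1.76, 1.90 and 2.38 FPKM in the H3.3KD clones, against 1.44 and 1.84 FPKM in the LUC clones. Hoxb6 had 1.48, 2.37 and 6.29 FPKM in the H3.3KD clones, against 5.17 and 3.46 FPKM in the LUC clones, a wider range among the H3.3KD clones than between the group means. In Hoxc, Hoxc4 had 3.49, 2.92 and 3.297 FPKM in the H3.3KD clones, against 2.57 and 3.76 FPKM in the LUC clones. Hoxc5 had 0.980, 1.15 and 1.29 FPKM in the H3.3KD clones, against 1.196 and 1.02 FPKM in the LUC clones. Hoxc6, a gene that marks the start of the thorax, had 2.77, 3.75 and 7.28 FPKM in the H3.3KD clones, against 3.65 and 4.25 FPKM in the LUC clones. H3.3KD clone 3, which had the least H3f3a RNA, was the highest library for Hoxa4, Hoxb5, Hoxb6, Hoxc5 and Hoxc6. It was the lowest library for other active members, such as Hoxa10 and Hoxd8. The part of the H3f3a level in these orders was not tested. The Hoxb sum was 5.75, 7.04 and 11.8 FPKM in the H3.3KD clones and 9.56 and 10.2 FPKM in the LUC clones, and the Hoxc sum was 7.38, 8.04 and 12.0 FPKM in the H3.3KD clones and 7.55 and 9.30 FPKM in the LUC clones.

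**Figure D2:**
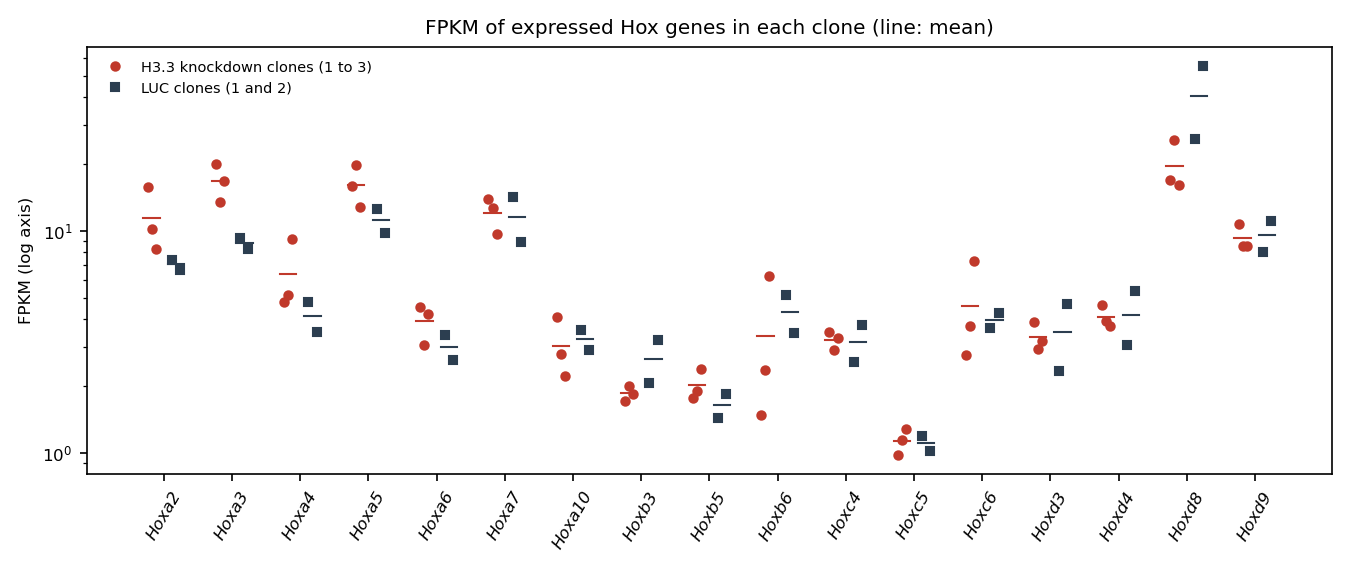
FPKM on a log axis of active Hox genes in each H3.3KD clone (red circles, left) and each LUC clone (dark squares, right), with a line at each group mean. Hoxa2, Hoxa3 and Hoxa5 have all H3.3KD clones above both LUC clones, Hoxb3 and Hoxd8 have them below, and the other genes shown overlap.

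The silent genes stayed silent in the knockdown: none of the 21 reached 1 FPKM in any H3.3KD clone. The highest H3.3KD values among them were 0.622 FPKM for Hoxb8 and 0.613 FPKM for Hoxb4, both in clone 3. Hoxa9, a gene of blood progenitors and leukaemia, had 0.308, 0.252 and 0.187 FPKM in the H3.3KD clones, against 0.129 and 0.231 FPKM in the LUC clones. Hoxd11, a forearm gene, had 0.146, 0.0946 and 0.114 FPKM in the H3.3KD clones, against 0.0486 and 0.0219 FPKM in the LUC clones, with no overlap. A lack of overlap in the other direction also occurred among the silent genes, which were not tested. At these levels the authors' deposited intervals were wide, from 0.0583 to 0.233 FPKM for Hoxd11 in H3.3KD clone 1 and from 0.00529 to 0.0919 FPKM in LUC clone 1, and they overlapped.

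The second comparison set active against silent members for histone marks in cells that were not transduced. A gene counted as marked when a deposited peak touched its locus or the 1 kb on either side. H3K4me3 peaks lay at 14 of 18 active Hox genes, against 94.0% of all active genes, and at 9 of 21 silent Hox genes, against 29.1% of all silent genes. H3K9ac peaks lay at 12 of 18 active Hox genes, against 88.6% of all active genes, and at 1 of 21 silent ones (Hoxc9), against 10.7% of all silent genes. H3K27ac peaks lay at 9 of 18 active Hox genes, against 69.8% of all active genes, and at 0 of 21 silent ones, against 13.9% of all silent genes. The marked stretch of an active gene was shorter for Hox genes, with a median of 4.89 kb, than for all genes, with 22.4 kb; for silent genes the medians were 5.37 and 10.9 kb. Each mark is 1 library, and neighbouring Hox genes share peaks, so these counts carry no test.

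Within 1 kb of the 5′ ends, where stretch length plays no part, the contrast was sharper for H3K4me3. The counts changed little for H3K9ac and not for H3K27ac. The H3K4me3 share over all silent genes was also lower than with the wider stretch. H3K4me3 peaks lay at 14 of 18 active Hox genes (92.8% of all active genes with a known strand) and at 3 of 21 silent ones (10.9% of all silent genes). The scores of those 14 had a median of 3100, and those of the 3 silent genes, Hoxa11, Hoxa13 and Hoxb8, were 136.7, 104.0 and 123.1. The score is the value deposited with each peak, used here without a unit. A score of 3100 is shared by 8591 of 32099 peaks, so peaks at that score cannot be ranked further. H3K9ac peaks lay at 12 of 18 active 5′ ends (87.4% of all active genes) and at 0 of 21 silent ones (5.57% of all silent genes). H3K27ac peaks lay at 9 of 18 active 5′ ends (63.6% of all active genes) and at 0 of 21 silent ones (4.58% of all silent genes). Over the 39 genes, the share of the stretch under peaks and the LUC FPKM had a Spearman rho of 0.594 for H3K4me3, 0.696 for H3K9ac and 0.619 for H3K27ac, a description, since neighbours share peaks.

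The Hoxa cluster held some of the widest H3K4me3 peaks in the genome. One of 14181 bp covered Hoxa2 and the 3′ part of Hoxa3 and ranked 6 in width of 32099 peaks. Another of 13626 bp (mm9 chr6:52154687-52168312) covered the 5′ part of Hoxa3, all of Hoxa6 and most of Hoxa7, and ranked 10. One more, of 7195 bp, (chr6:52124386-52131580) lay within the Hoxa3 locus and ranked 140. In all, H3K4me3 peaks covered 48.3% of the 107.5 kb of the Hoxa cluster, H3K9ac peaks 34.1% and H3K27ac peaks 6.34%. The noncoding gene Mira, whose locus lies between Hoxa6 and Hoxa7 inside the second of these peaks, had 30.4, 32.7 and 17.8 FPKM in the H3.3KD clones, against 26.3 and 25.3 FPKM in the LUC clones, a LUC level per length that only Hoxd8 exceeded among the Hox genes; it was picked out after its values were seen.

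The other clusters were covered far less. H3K4me3 peaks covered 10.2% of Hoxb, 20.1% of Hoxc and 14.0% of Hoxd, H3K9ac peaks 3.94%, 6.17% and 7.66%, and H3K27ac peaks 0.119%, 0.936% and 0.684%. In Hoxd the 3 strong H3K4me3 peaks, of 2617, 3334 and 6045 bp, sat on Hoxd9, Hoxd8 and the 5′ part of Hoxd3. The peaks at the posterior Hoxd genes were small, with scores of 61.8 to 96.5. Hoxd8, the member with the most RNA, had H3K4me3 and H3K9ac peaks but no H3K27ac peak in its stretch.

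**Figure D3:**
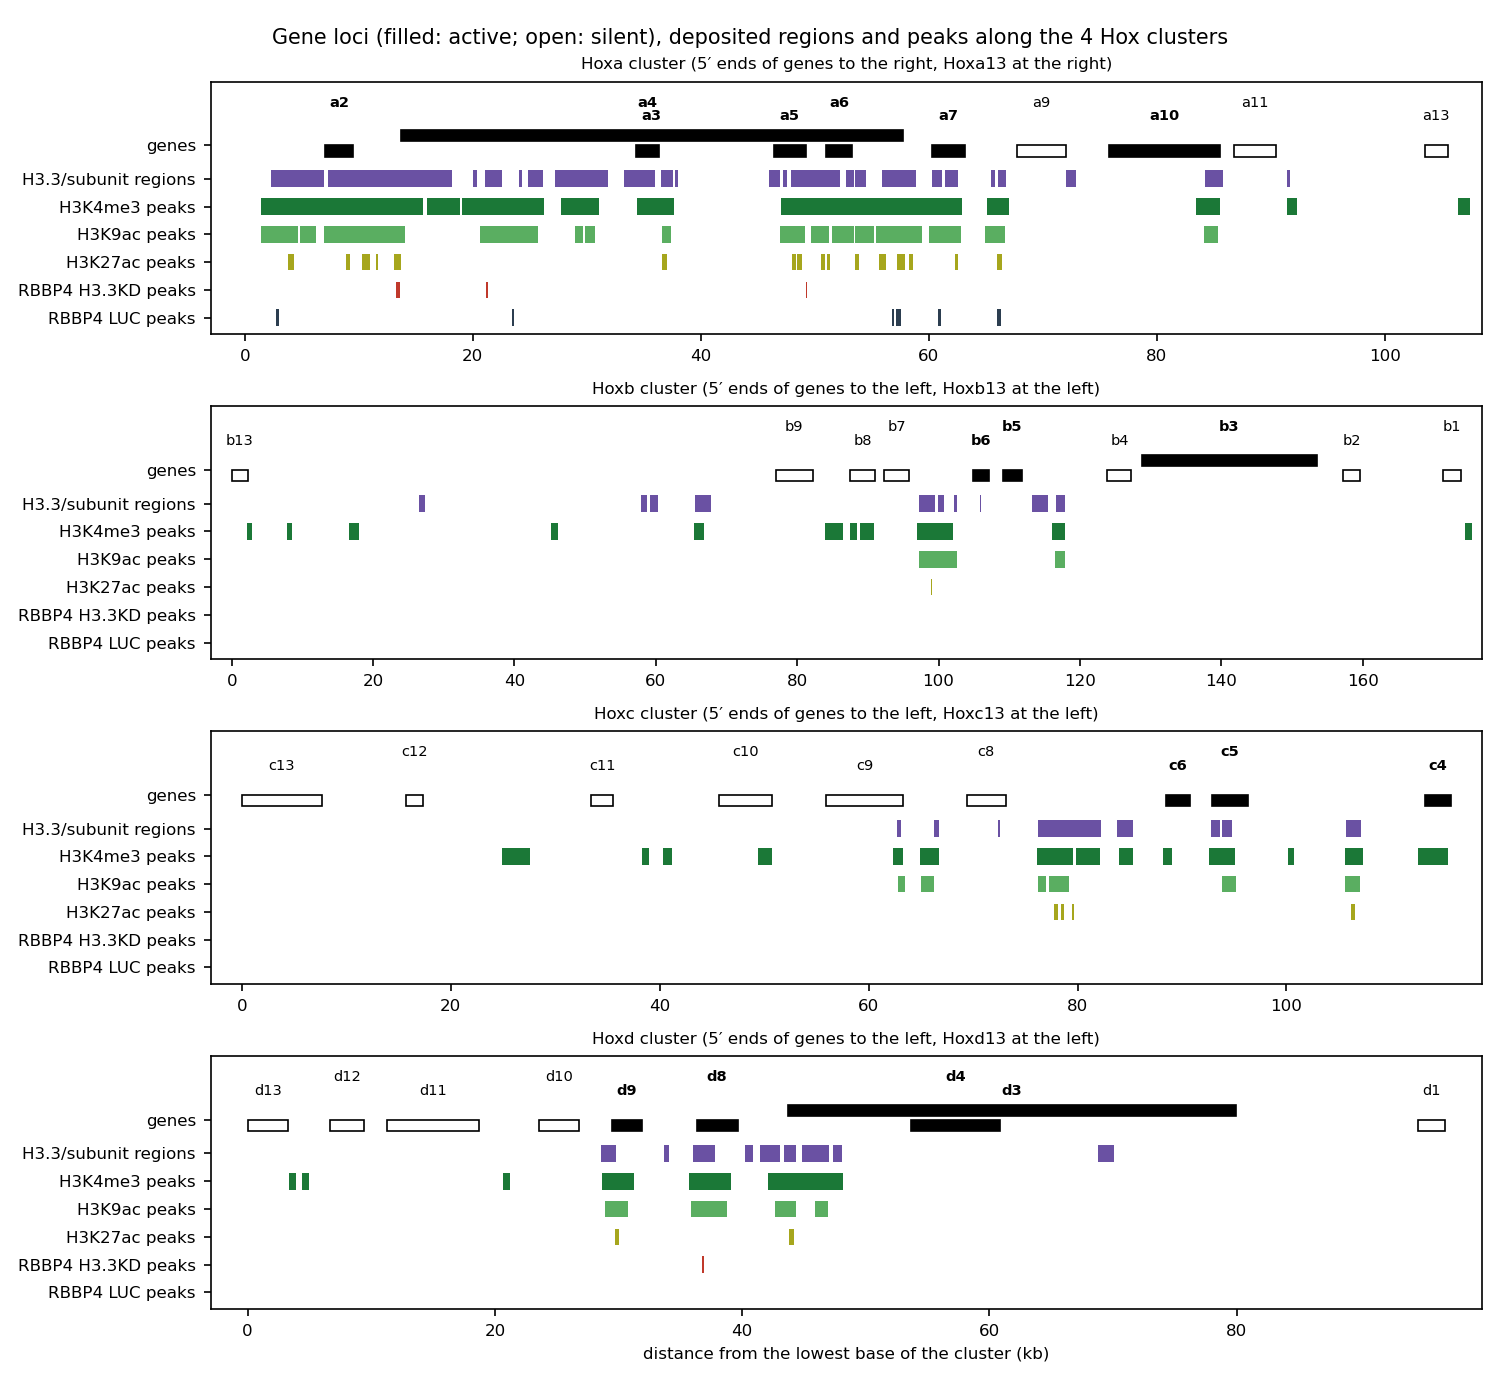
Gene loci (filled where active, open where silent), deposited H3.3 or subunit regions, mark peaks, and RBBP4 peaks of H3.3KD and LUC cells along the 4 clusters, by distance in kb from the lowest base of the cluster. H3K4me3 and H3K9ac peaks cover much of the Hoxa cluster from Hoxa2 to Hoxa7, with gaps, such as the one between Hoxa4 and Hoxa5. In the other clusters the marks lie in sparser blocks beside active and silent genes. The RBBP4 peaks of H3.3KD and LUC cells are limited to Hoxa (10 peaks) and Hoxd8 (1 peak). Those of cells that were not transduced, not drawn here, lay in regions of all 4 clusters.

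Of the active genes, 4 had no H3K4me3 peak in their stretch: Hoxb3, Hoxb5, Hoxb6 and Hoxd4. Each lay 3′ of a strong intergenic or neighbouring peak. From the 5′ end of Hoxb6 the nearest upstream peak was 2764 bp away, a peak of 5092 bp with a score of 3100 (chr11:96152629-96157720) between the silent Hoxb7 and the active Hoxb6. From Hoxb5 the same peak was 7105 bp away. From Hoxb3 a peak with a score of 1574 (chr11:96171752-96173632) was 10807 bp away, and from Hoxd4 the peak at the 5′ end of Hoxd3 was 5504 bp away. Silent genes lay likewise: Hoxb4 was 5948 bp from the peak upstream of Hoxb3, and Hoxb7 was 1455 bp from a peak with a score of 900.1. In Hoxc a peak of 3427 bp with a score of 3100 (chr15:102827680-102831106) lay between the silent Hoxc8 and the active Hoxc6. Hoxc6 itself had only a weak peak, with a score of 87.1, at its 5′ end.

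Of the silent genes, 9 had an H3K4me3 peak in their stretch. The stretch of Hoxa9 was touched at its 3′ edge by a strong peak between Hoxa7 and Hoxa9 (score 2928) that ended 675 bp from the locus. Hoxb8 carried peaks with scores of 900.1 and 123.1 within its locus, and Hoxc10 had one with a score of 515.2. Hoxc9 had one with a score of 248.1 and, as the single silent member with H3K9ac, a peak of that mark with a score of 76.3. The peaks of Hoxa11, Hoxa13, Hoxb1, Hoxb13 and Hoxd13 had scores of 136.7, 104.0, 115.2, 57.0 and 96.5. All but Hoxb8 had little or no RNA: Hoxa11 and Hoxa13 were listed at 0 in every library, Hoxb1 and Hoxb13 had 0.0192 and 0.0324 FPKM in H3.3KD clone 1 and 0 elsewhere, and Hoxd13 had 0.0116 FPKM in LUC clone 2 and 0 elsewhere. Hoxc9 had 0.0474, 0.0163 and 0 FPKM in the H3.3KD clones, against 0 and 0.0695 FPKM in the LUC clones. Hoxc10, a gene of hindlimb-level tissues, had 0.0210, 0.101 and 0.0207 FPKM in the H3.3KD clones, against 0.0307 and 0.0154 FPKM in the LUC clones.

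The clusters held 44 H3K4me3 peaks. Of these, 18 were overlapped by an H3K9ac peak, against 40.2% of all H3K4me3 peaks, and 10 by an H3K27ac peak, against 30.6%. By score, 17 of 24 Hox peaks at 500 or more had H3K9ac, against 82.8% of all such peaks, 1 of 9 at 100 to 500, against 10.4%, and 0 of 11 under 100, against 3.07%. By cluster, H3K9ac overlapped 8 of 13 H3K4me3 peaks in Hoxa, 2 of 11 in Hoxb, 5 of 14 in Hoxc and 3 of 6 in Hoxd.

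The third comparison concerned H3.3 and the NuRD subunits. The authors deposited levels for 82893 regions, each with a peak of HA-H3.3 or of a subunit. Such a region touched the stretch of 13 of 18 active Hox genes, against 93.9% of all active genes, and of 4 of 21 silent Hox genes, against 34.4% of all silent genes. The active genes without one were Hoxb3, Hoxb5, Hoxc4, Hoxc6 and Hoxd4, and the silent genes with one were Hoxa9, Hoxa11, Hoxc8 and Hoxc9. The 4 clusters held 54 regions, 25 of them in Hoxa, 10 in Hoxb, 9 in Hoxc and 10 in Hoxd, which made up 40.6%, 7.04%, 9.87% and 11.1% of each cluster's length.

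RBBP4 peaks, from the histone-binding subunit that NuRD shares with other complexes, were in 29 of the 54 regions, against 31.0% of all regions. HDAC2 peaks, from a deacetylase subunit, were in 16, against 13.4%, and HDAC1 peaks in 7, against 6.32%. MTA1 peaks were in 5, against 3.64%, and MBD2/3 peaks, from the subunits of the methyl-CpG-binding domain family, in 3, against 3.17%. CHD4, the remodelling ATPase, had a peak in 0 of the 54, against 2.43%. HA-H3.3 peaks were in 30 regions in library 1 and 41 in library 2, against 56.6% and 82.7% of all regions. Of the 29 regions with RBBP4, 15 lay in Hoxa, 5 in Hoxb, 6 in Hoxc and 3 in Hoxd. The sequential ChIP list, which held 6 peaks in the whole genome, had 0 in the clusters.

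Levels are given as a description. As reads scaled to region length and library size (RPKM), the median Hox region ranked at percentile 76.5 of all regions for RBBP4, with 2.80 against a median of 1.54 RPKM over all regions. It ranked at 75.9 for HDAC2, 71.4 for MTA1, 70.1 for CHD4, 69.9 for HDAC1 and 65.7 for MBD2/3. For HA-H3.3 it was at 51.4 and 43.4 in libraries 1 and 2, near the middle. For the marks it was at 84.4 for H3K4me3, 84.5 for H3K9ac and 67.0 for H3K27ac. The regions share libraries and lie side by side, there was no input column, and a median region over all regions held 7 to 46 reads, so these percentiles carry no test.

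**Figure D4:**
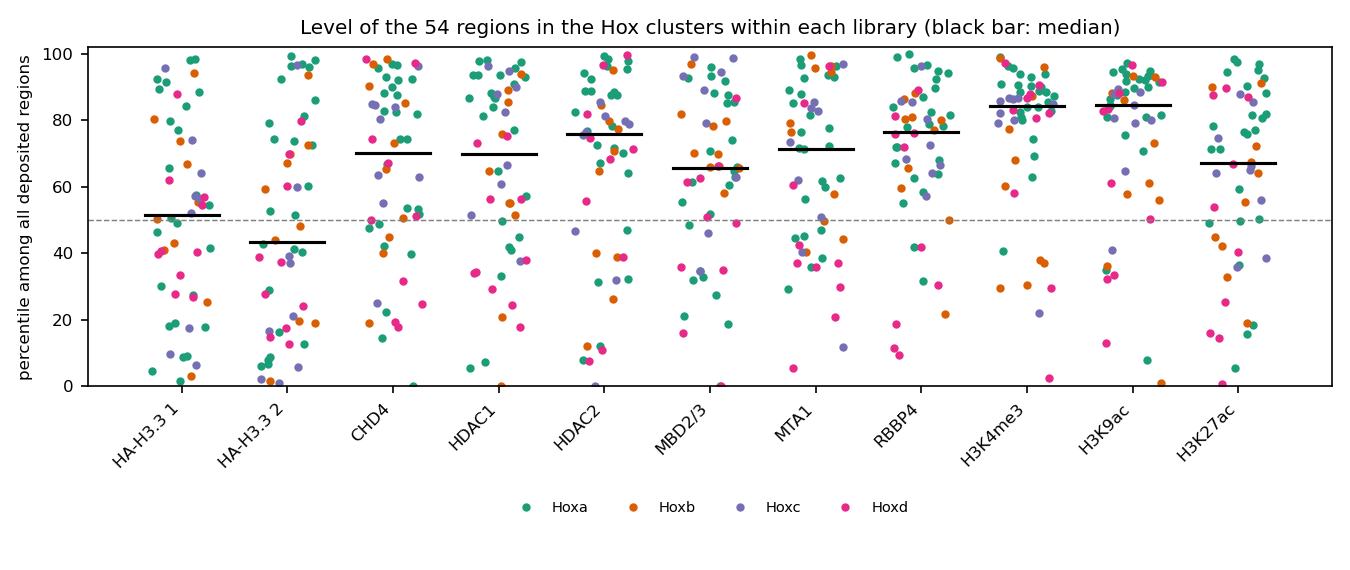
Percentile of each of the 54 Hox regions among all 82893 deposited regions, by library (points coloured by cluster, black bar at the median, dashed line at the 50th percentile). The medians for the subunits lie above the middle, from 65.7 for MBD2/3 to 76.5 for RBBP4, while the HA-H3.3 medians are 51.4 and 43.4.

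Between active and silent genes the subunits did not follow a single order, and HDAC2 alone had the higher median at active genes. The median level was 2.25 RPKM at the 13 active genes with a region and 1.47 RPKM at the 4 silent ones for HDAC2. For RBBP4 it was 2.91 RPKM at active and 3.41 RPKM at silent genes, and for HDAC1 1.61 RPKM at active and 2.03 RPKM at silent genes. CHD4, MBD2/3 and MTA1 had 1.36, 1.15 and 1.31 RPKM at active genes, against 1.43, 1.74 and 1.37 RPKM at silent genes. HA-H3.3 had medians of 2.67 RPKM at active and 1.84 RPKM at silent genes in library 1. In library 2 the medians were 3.37 and 1.46 RPKM. Of the 13 active genes, 5 were above the highest silent gene in library 1 and 12 in library 2. H3K4me3 had 9.86 RPKM at active and 5.95 RPKM at silent genes. Active and silent genes drew on shared or intergenic regions: of the 400 H3K4me3 reads of Hoxa11, all but 8 lay in a region at the 5′ end of the active Hoxa10, and the highest region of Hoxa9 for RBBP4 and H3K4me3 lay in no Hox locus. Within 1 kb of the 5′ end, H3K4me3 was 1.19 RPKM at Hoxa11 and 0.390 RPKM at Hoxa9. The ratio of active to silent genes for RBBP4 was 0.854. With the locus alone it was 1.16, so its direction turned, but only Hoxc8 and Hoxc9 were then left of the silent genes. The ratios for HA-H3.3, HDAC2 and H3K4me3 also moved with the stretch taken around a gene, and 4 silent genes are too few for a ranking. The extreme levels at Hoxb6 rest on a region that held 2 RBBP4 reads and 1 H3K4me3 read. On the silent side, Hoxc8 held 2 and 1 HA-H3.3 reads, 0 HDAC2 reads and 3 RBBP4 reads. Hoxc9 held 6 and 3 HA-H3.3 reads, 2 HDAC2 reads and 11 RBBP4 reads, so the silent medians rest partly on few reads.

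The highest RBBP4 level was in the Hoxa cluster. A region of 767 bp between Hoxa7 and Hoxa9 (chr6:52171391-52172157) had 9.27 RPKM, with an exact Poisson 95% interval of 7.14 to 11.8 from 64 reads, at percentile 99.9. It lay in no Hox locus. The other subunits were also high there, with percentiles of 96.5 for CHD4, 97.6 for HDAC1, 95.5 for HDAC2, 91.8 for MBD2/3 and 98.4 for MTA1, but only RBBP4 had a peak. H3K27ac was at percentile 98.4, while HA-H3.3 was at 41.6 and 16.4 in its libraries. Another region of high RBBP4, at the 5′ end of the Hoxa3 locus (chr6:52161261-52164224), had 4.91 RPKM of RBBP4 (interval 4.11 to 5.83), peaks of HDAC1, HDAC2, MBD2/3 and RBBP4, and H3K4me3 at percentile 98.9. These intervals cover counting error only.

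The last comparison was of RBBP4 and MTA1 peaks in H3.3KD and in LUC cells. The clusters held 5 RBBP4 peaks in H3.3KD cells, with 4 in Hoxa and 1 in Hoxd, and 6 in LUC cells, all in Hoxa. None of the H3.3KD peaks overlapped a LUC peak, against 47.2% of all RBBP4 peaks in H3.3KD cells, and none of the LUC peaks overlapped an H3.3KD peak, against 33.9% of all in LUC cells. The H3.3KD peaks had scores of 55.5 to 86.0 and the LUC peaks of 53.2 to 110.4, beside medians over the whole lists of 68.9 in H3.3KD and 67.1 in LUC cells. In H3.3KD cells they lay near the 3′ end of the Hoxa3 locus (chr6:52118638-52118801 and chr6:52118836-52119020), within it (chr6:52126504-52126660), at the 5′ end of Hoxa5 (chr6:52154560-52154707) and in Hoxd8 (chr2:74543105-74543270). In LUC cells 5 of the peaks lay within the Hoxa3 locus (chr6:52128781-52128998, chr6:52162104-52162336 and chr6:52162471-52162912), in Hoxa7 (chr6:52166185-52166386) and between Hoxa7 and Hoxa9 (chr6:52171338-52171673). By gene, the LUC peaks fell at 3 of 18 active Hox genes, against 16.5% of all active genes, and at 0 of 21 silent ones, against 3.24% of all silent genes.

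MTA1 had 1 peak in the clusters in H3.3KD cells and 2 in LUC cells. The H3.3KD peak (chr6:52171403-52172482, score 73.8) lay on the region between Hoxa7 and Hoxa9 with the highest RBBP4 level, where LUC cells had an RBBP4 peak. The LUC peaks lay near the 5′ end of the Hoxa3 locus (chr6:52162448-52162601, score 51.9) and between Hoxc9 and Hoxc8 (chr15:102817973-102818089, score 51.6). With 1 library per protein and condition and an unknown depth, a peak in 1 list and not in the other was not tested as a difference.

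HOX proteins bind DNA with TALE homeodomain partners, the PBX, MEIS and PKNOX proteins. Of the 9 TALE genes, 8 passed the filter on low values and none passed limma at an adjusted p under 0.05. Meis1 had 9.74, 8.43 and 8.20 FPKM in the H3.3KD clones, against 5.54 and 7.03 FPKM in the LUC clones, which did not overlap, with a log2 difference of 0.43 (SE 0.19, limma adjusted p = 0.517). The means of Pbx2, Pbx3 and Pbx4 were 20.3, 6.56 and 1.21 FPKM in H3.3KD clones, and 19.3, 8.15 and 1.08 FPKM in LUC clones. Those of Meis2, Meis3 and Pknox1 were 4.69, 12.3 and 6.89 FPKM in H3.3KD clones, and 4.58, 14.4 and 7.45 FPKM in LUC clones. These 6 genes overlapped between the groups.

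Among neighbours of the clusters and known Hox regulators, no gene passed either. Hnrnpa1, an RNA-binding protein gene near Hoxc, averaged 183.1 ± 21.8 FPKM in H3.3KD clones (SD, n = 3) and 112.8 ± 15.7 FPKM in LUC clones (SD, n = 2), with a limma adjusted p of 0.464. Cbx2, a Polycomb subunit, averaged 3.93 ± 0.885 FPKM in H3.3KD clones (SD, n = 3) and 7.03 ± 1.08 FPKM in LUC clones (SD, n = 2), with a limma adjusted p of 0.469. Gmnn, whose product geminin limits DNA replication and binds HOX and Polycomb proteins, averaged 19.4 FPKM in H3.3KD clones and 33.7 FPKM in LUC clones (limma adjusted p = 0.547), and Mtx2 and Skap2, beside Hoxd and Hoxa, averaged 38.3 and 39.4 FPKM in H3.3KD clones and 50.5 and 50.6 FPKM in LUC clones. The noncoding RNA Hotair of the Hoxc cluster averaged 0.113 FPKM in H3.3KD clones and 0.137 FPKM in LUC clones. Hottip, Evx1, Evx2, Cdx2 and Cdx4 were listed at 0 in all libraries.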

How the data were processed

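The authors deposited FPKM per gene for 5 RNA libraries, in the columns Cufflinks writes, per the file headers. They deposited a table of levels on a log2 scale, log2(RPKM + 1), for 82893 regions, and a table with the peak-covered fraction of each region, by library. They deposited peak lists with a score per peak. The sequential ChIP list, made with MACS 2.1.1.20160309, gives a pileup signal, −log10 p and q values and a fold enrichment, per the file headers; only its positions were used. Bowtie, bedtools, TopHat, Cufflinks, Cuffdiff, MACS2 and mm9 are named in the submitters' processing notes, without roles. Coordinates of regions and peaks are mm9, 1-based.

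Entries of a symbol were summed. Knockdown and LUC clones were compared with limma 3.58.1 (R 4.3.3; eBayes with trend, two-sided, Benjamini-Hochberg) on log2(FPKM + 1) at a mean of at least 1 FPKM, which understates changes of low genes. The fit was tested on simulated data. The tables hold no read counts; fragments were estimated from the authors' upper interval taken as 2 SD. Reads were recovered from the levels, 100% whole within 0.05, at 6.62 to 24.1 M per library. Peaks and regions were assigned to a gene by 1 base of overlap with its locus plus 1 kb. Strand for 5′ ends came from the RefSeq promoter table, with 1 strand taken for all genes of a Hox cluster. The alternatives were another pseudocount, filters, quantile scaling, no trend, a replicate block, each clone left out, other stretches, peak scores, overlaps and activity thresholds. Inputs were not used. Members named in the text are all genes past the filter and silent genes with an H3K4me3 peak, plus TALE genes and the 6 other listed genes of smallest p. Outside this rule, Hoxb4, Hoxb7 and Hoxd11 were named after their values were seen. Other silent members without such a peak were named for their place, a region, a level of 0 or, for Hoxd10, also a printed promoter. Hotair and the listed genes at 0 were likewise named outside the rule. Some members and listed genes are not reported here. The members and lists were chosen with earlier results of these data known.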

Additional observations from a re-analysis of the deposited data

How the results depend on the processing

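No Hox gene was called in any of the 12 fits (smallest limma adjusted p of a Hox gene 0.423 to 0.962). Over all genes the limma calls numbered 4, and 56 with no filter, 6 with a pseudocount of 0.1, 6 with no trend and 8 to 30 with 1 clone left out. With a replicate block by clone number, limma called 0 genes of either kind. Deviations from the group mean had r = -0.25 and -0.10 for the 2 pairs of equal number. With 2 LUC clones these deviations mirror each other, so r cannot decide whether equal numbers shared a batch. The labels do not say so. The sign turned at small differences, in log2: Hoxd3 to 0.0018 at a pseudocount of 0.1, 0.036 with quantile scaling and 0.012 with the block, Hoxd9 to 0.072 and 0.018 with the last 2 settings, and with the block Hoxa10 to 0.058, Hoxc5 to -0.031 and Hoxc6 to -0.22. With 1 clone left out the ranges crossed 0: Hoxd3 -0.39 to 0.37, Hoxd9 -0.24 to 0.18, Hoxa10 -0.28 to 0.058, Hoxc5 -0.041 to 0.078, Hoxc6 -0.22 to 0.34, Hoxa7 -0.23 to 0.39, Hoxc4 -0.17 to 0.25 and Hoxd4 -0.32 to 0.32; the cause was not tested.

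With activity from 5 FPKM, active Hox genes numbered 7, H3K4me3 lay at 7 active and 16 silent genes, H3K9ac at 7 and 6, and H3K27ac at 3 silent. H3K4me3 at silent genes was 4 for the locus alone, 17 with 5 kb, 5 with 50% of the peak inside and 3 at 5′ ends (an alternative chosen after seeing the data). H3K9ac at silent genes was 6 with 5 kb, 0 at scores from 100 and 0 at 5′ ends, and H3K27ac 4 with 5 kb. The active-over-silent ratio of HA-H3.3 was 1.88, and 5.68 for the locus alone and 1.18 with 5 kb. For HDAC2 it was 5.41 for the locus alone. For H3K4me3 it was 4.56 for the locus alone, 1.21 with 5 kb and 13.5 at 5′ ends, where H3K9ac was 6.27 and H3K27ac 3.39. For the locus alone the silent side was Hoxc8 and Hoxc9 only, with 0 and 2 HDAC2 reads and 1 and 33 H3K4me3 reads. At 5′ ends it was Hoxa9 and Hoxa11 only, with 8 H3K4me3 reads each, so these ratios rest on few reads. At scores from 100, RBBP4 kept 0 H3.3KD and 1 LUC peaks and MTA1 0 and 0. Of the other comparisons, 77 of those a statement leads with stayed within their limits. Depth limits silent genes, where 1 fragment moves the FPKM.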
